A study of Rattus norvegicus with 18 samples.

Results

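The 12 libraries of 28-month-old rats, 6 from rats fed ad libitum (AL) and 6 from calorically restricted (CR) rats, were compared as 1 aged group with the 6 libraries of 6-month-old rats fed AL. The members were taken from the age in the sample labels, 12 of the 18 libraries of the series, and all genes were tested. Diet was kept as a second factor within the aged side, so that a gene could be described by its difference between ages and, separately, by its difference between the aged diets. All rats were male Brown Norway rats and the tissue was gastrocnemius, the large calf muscle. Every young rat was on AL feeding, whereas the CR rats had received 55% of the AL intake since they were 2 months old and were therefore restricted for most of their lives. The paper states that CR rats could eat only within a short daily window, whereas AL rats always had food. The amount of food and the timing of meals therefore cannot be told apart in any comparison with CR rats. No young CR rats were among the samples, so an effect of CR that is the same at any age cannot be told apart from one that belongs to ageing.

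Skeletal muscle loses mass and force in old age, and its RNA records changes in the muscle fibres, in their mitochondria and in the immune, vascular and connective tissue cells between them. CR is the best studied dietary means of slowing this decline in rodents, and a gene that differs from young muscle to the same extent under both diets is one on which this intervention left no difference at this age. Mitochondria carry a small chromosome of their own for subunits of the respiratory chain, which makes most of the ATP of a resting fibre. The genes of the major histocompatibility complex (MHC), called RT1 in the rat, encode the proteins that display peptides to T cells, and the rat MHC lies near the start of chromosome 20. In whole muscle, fewer cells of a type and less RNA in each cell cannot be told apart.

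The count table holds 32883 Ensembl gene identifiers, 3346 of them without a count, and 14646 genes passed the filter on low counts. Total counts per library were 17335401 to 27432767, and none of 8 comparisons of total count, number of genes detected, share of the 10 most abundant genes or mitochondrial share passed adjustment (two-sided exact permutation tests, lowest adjusted p = 0.268). Rat 8 (aged, AL) and library 8828 (aged, CR) stood apart from the other libraries of their groups. The median standard deviation of log2 CPM (TMM-scaled counts, as CPM) over genes was 0.368 in aged rats fed AL and 0.260 without rat 8, 0.265 in aged CR rats and 0.222 without library 8828, and 0.283 in young rats fed AL. Of all 18 libraries, the highest value was that of rat 8 in 20.7% of the genes tested, and the lowest in 21.2%. Age calls of the genes described that were lost without both libraries are named, and the larger shifts in the main counts are given. For 3 aged CR libraries the column name fits the group but not a single rat, and they are called by their library numbers, 8826, 8827 and 8828. Library 8826 carries the same sample number as rat 15, so that they are different rats rests on the library numbers. Library numbers run in a separate block for each group, so handling and group cannot be told apart if the blocks were handled apart. No symbols come with the identifiers, so genes are given by position in Rnor_6.0, and tissue and cell type markers, pathways and promoters were not analysed here.

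Calls were made with edgeR's quasi-likelihood test, and required a 1.5-fold change or more together with a p of at most 0.05 after Benjamini-Hochberg adjustment over all genes tested. Between the 12 aged and the 6 young rats, 209 genes were called higher (1.43% of those tested) and 253 lower (1.73%) in aged muscle, 462 in all (3.15%). With upper-quartile scaling in place of TMM the split was 242 higher and 183 lower, and with DESeq2's Wald test 439 higher and 363 lower. The median log2 fold change was 1.46 among higher and -0.93 among lower genes, where the median over all genes tested was 0.0018 and the median standard error 0.16. Higher genes were the less abundant, at a median of 5.0 CPM, compared with 25.0 CPM for lower genes. An unadjusted p under 0.05 was found for 3245 genes.

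The calls were then read rat by rat. All 12 aged rats lay above all 6 young rats in 36 genes (0.246% of those tested), 22 of them called, and below all young rats in 43 genes (0.294%), 30 of them called. The genes above became 76, 55 and 64 without young rats 2, 3 and 4, 57 without rat 8 and library 8828 and 65 with upper-quartile scaling, and the genes below 70, 121 and 83 without young rats 1, 2 and 4. With all libraries, most called genes had some aged rat within the young range. Among the higher genes, a median of 5 of the 6 aged rats fed AL and 5 of the 6 aged CR rats exceeded every young rat. At least 9 of the 12 aged rats did so in 154 of the 209 genes, and fewer than 6 in 1 gene. Among the lower genes, the medians were 4 of 6 aged rats fed AL and 5 of 6 aged CR rats below every young rat, with at least 9 of 12 in 128 of the 253 genes and fewer than 6 in 60 genes.

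A few aged rats held the extreme values of many called genes. The highest value was that of rat 8 in 71 of the 209 higher genes (34.0%, against 20.7% of all genes tested), and that of rat 9, also an aged rat on AL feeding, in 60 (28.7%, against 5.63%). It was that of library 8828 in 19 (9.09%, against 5.28%). The lowest value of the lower genes lay in rat 8 for 55 of 253 (21.7%, against 21.2% of all genes tested) and in library 8828 for 49 (19.4%, against 6.34%). Without rat 8 and library 8828 the same fit called 600 genes, 309 higher (2.11% of 14617 tested) and 291 lower (1.99%). Of these, 193 higher and 211 lower genes were among the calls from all libraries. The 5 lowest counts came without a young rat. Leaving out young rat 5 gave 212 calls, young rat 6 gave 257 and young rat 3 gave 268. The number of higher genes fell to 103, 108, 118, 78 and 80 without young rats 1, 3, 4, 5 and 6, and that of lower genes to 160 and 134 without young rats 3 and 5.

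**Figure D1:**
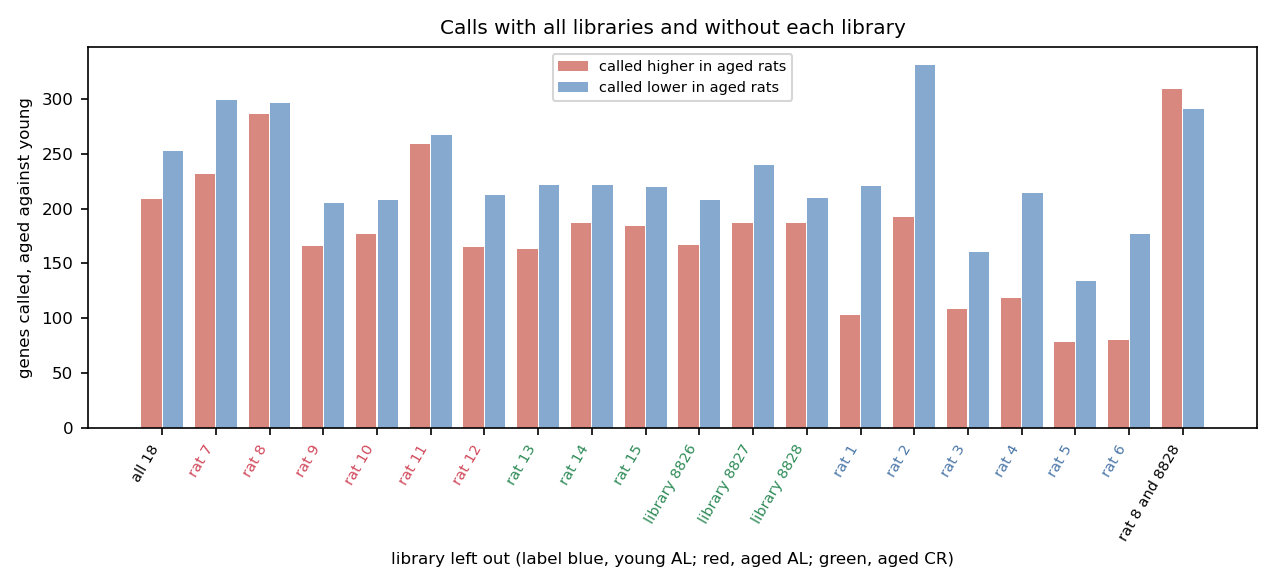
Number of genes called higher (red bars) and lower (blue bars) in the 12 aged than in the 6 young rats, with all 18 libraries, without each library in turn and without rat 8 and library 8828 together. The bars start at 209 and 253 with all libraries, drop to 78 and 134 without young rat 5, and reach 309 and 291 without both libraries that stood apart.

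The gene with the lowest adjusted p of all, ENSRNOG00000014448 on chromosome 1, was lower in aged muscle and lower still under CR. It lies at chr1:178039063-178137465. Young rats had 51.6 to 70.2 CPM (median 63.4), aged rats fed AL had 17.1 to 34.0 (median 26.0) and aged CR rats 5.08 to 10.9 (median 6.73). All 3 groups were separate from each other. The pooled difference was 4.66-fold, or -2.22 on the log2 scale (standard error 0.15, adjusted p = 9.28e-08), and the CR rats were 3.42-fold below the aged rats fed AL (95% interval of the log2 difference -2.16 to -1.39).

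The next lower gene, ENSRNOG00000061483 at chr20:4956541-4958492, did not separate the diets. Young rats had 4.26 to 22.9 CPM (median 10.2), aged rats fed AL 0.818 to 2.5 (median 1.43) and CR rats 0.690 to 1.44 (median 1.13). All aged rats lay under all young rats, whereas the aged groups overlapped, with 3 of the aged rats fed AL above every CR rat. The pooled log2 fold change was -3.09 (standard error 0.32, adjusted p = 6.06e-05), and the interval of CR minus AL, -1.29 to 0.39, was too wide to place a diet difference.

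Among the higher genes, ENSRNOG00000021027 at chr1:101687855-101692846 had the lowest adjusted p. Its level was 11.4 to 15.9 CPM (median 14.2) in young rats, 27.6 to 78.2 (median 43.8) under AL in aged rats and 56.0 to 112.0 (median 97.1) in aged CR rats. All 12 aged rats were above all young rats, and 2 of the aged rats fed AL lay within the range of the CR rats. The pooled log2 fold change was 2.25 (standard error 0.23, adjusted p = 6.06e-05). CR rats were 1.94-fold above the aged rats fed AL, with an adjusted p of 0.0489.

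ENSRNOG00000018413, at chr5:168086998-168123395, followed with a smaller rise. Young rats had 19.1 to 41.1 CPM (median 30.5), aged rats fed AL 37.2 to 51.3 (median 46.1) and aged CR rats 65.8 to 89.4 (median 80.1). The aged CR rats were clear of both other groups, and 1 aged rat fed AL was within the young range. The pooled difference was 2.0-fold (standard error 0.13 on the log2 scale, adjusted p = 0.000358), and CR minus AL was 0.80 on the log2 scale (adjusted p = 0.00749).

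The 12 higher genes with the lowest adjusted p spanned pooled log2 fold changes of 0.64 to 2.92, with standard errors of 0.09 to 0.48 and adjusted p of 6.06e-05 to 0.00205, and 4 of them had no overlap between aged and young rats. The 12 lower genes with the lowest adjusted p spanned -3.53 to -0.90 (standard errors 0.10 to 0.44, adjusted p 9.28e-08 to 0.00037), 7 of them without overlap. A diet difference was called in 5 of the 12 in each direction, against 1.38% of all genes tested and 7.79% of all age calls. All 24 kept an adjusted p of at most 0.05 without rat 8 and library 8828. Among the most abundant of them was a gene at chr12:36638457-36642734, with a median of 672 CPM in young rats, 389 in aged rats fed AL and 223 in aged CR rats. Its aged rats reached 166 to 456 CPM and its young rats 477 to 772, without overlap. The interval of its diet difference was -1.13 to -0.31 on the log2 scale, and its adjusted p between diets was 0.0659, or 0.0035 without both libraries.

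Diet was then read within the aged side. With 6 rats in each aged group the estimate of CR minus AL is uncorrelated with that of the pooled age difference only where both groups vary alike. The aged rats fed AL varied more (median standard deviation 0.368 against 0.265, as above), so choosing genes by the age call can favour a direction of CR minus AL. Between the aged diets 202 genes were called (1.38% of those tested), 122 higher and 80 lower in CR rats. Among the 462 age calls, 36 (7.79%) were also called between diets. In 18 of these the CR rats lay nearer to young rats than the aged rats fed AL did, 7 of them higher and 11 lower with age. In the other 18 the CR rats lay farther from young rats, 8 of them higher and 10 lower. These counts moved with single libraries. The calls between diets were 69, 103, 128 and 129 without library 8826, library 8827, rat 7 and rat 10, and 385 and 361 without rat 8 and library 8828. The genes nearer to young under CR numbered 41 and 28 without rat 8 and library 8828, and 6 to 11 without library 8826, library 8827, rat 9, 10, 12 or 15, or young rat 3, 5 or 6. Those farther from young were 28 without rat 8 and 11 without rat 7 or rat 9. A gene that changed only under AL falls among the nearer, and a gene that changed only under CR among the farther.

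The absence of a diet call is not a like level in both diets, so the 95% interval of CR minus AL was read for each of the other genes. In 76 of the 462 (16.5%) the whole interval lay inside 1.5-fold in either direction, 19 of them higher and 57 lower in aged muscle. These are the genes for which a diet difference of 1.5-fold lies outside the interval. In the remaining 350 (75.8%), 175 higher and 175 lower, the interval reached past 1.5-fold and no diet call was made. The 76 became 126 without young rat 2, 39 without young rat 3 and 47 without young rat 5 or library 8828, and the 350 became 144 to 231 without young rat 1, 3, 4, 5 or 6. Over all genes tested the interval lay inside 1.5-fold for 48.1%, so precise intervals were less frequent among the age calls than among genes at large. The genes with the precise intervals were those of small change, with a median absolute pooled log2 fold change of 0.69 against 1.19 in the genes with wide intervals, and the median standard errors of their diet differences were 0.19 and 0.31. Median levels were 24.0 and 8.26 CPM.

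Most higher genes had lower estimates under CR. CR minus AL was below 0 in 148 of the 209 higher genes, with a median of -0.39 on the log2 scale, where the median over all genes tested was -0.02. Rats 8 and 9, both fed AL, held the highest value in 71 and 60 of these 209, so the choice of genes may itself favour this direction, and nothing is read from it. Among the 253 lower genes the CR estimate was nearer to young in 118 and farther in 135, with a median CR minus AL of -0.03. Without rat 8 and library 8828 the medians were -0.55 among the 309 higher and 0.03 among the 291 lower genes of that fit. The same fit called 477 genes between diets and put 53 age calls nearer to young and 28 farther under CR, with 72 inside 1.5-fold and 447 with a wider interval.

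**Figure D2:**
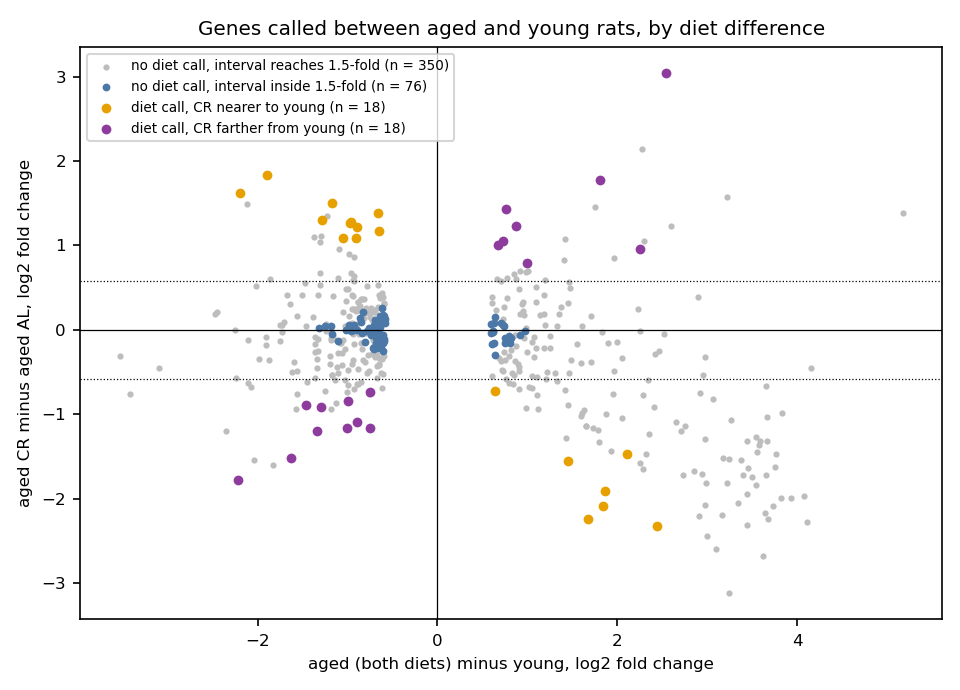
Each point is 1 of the 462 age calls, placed by its pooled log2 fold change (horizontal) and its log2 difference of CR minus AL within the aged side (vertical), with dotted lines at 1.5-fold. Blue points, the 76 genes with the diet interval inside 1.5-fold, keep to small age differences, and the grey points with large age rises lie mostly below 0 on the diet axis.

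The 5 genes of largest age difference among those with the precise intervals were all lower in aged muscle, and in all 5 the aged rats lay under the whole young range. A gene at chr6:41799749-41870046 had 217 to 381 CPM in young rats. Aged rats fed AL had 81.5 to 174 (median 149) and aged CR rats 108 to 169 (median 124). The aged groups overlapped, and 2 of the aged rats fed AL were below every CR rat. Its pooled log2 fold change was -1.17 (standard error 0.16, adjusted p = 0.000533), and its diet interval ran from -0.45 to 0.36. A gene at chr14:45598743-45797887 fell from a median of 73.0 CPM (60.1 to 113) in young rats to 31.0 (22.3 to 46.4) under AL and 37.1 (21.0 to 40.3) under CR in aged rats, by 1.25 on the log2 scale (standard error 0.17).

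The largest difference in this set, at -1.32 on the log2 scale (standard error 0.18), belonged to a gene of low level at chr5:159207273-159214241. Young rats had 3.42 to 5.75 CPM (median 5.29), aged rats fed AL 1.25 to 2.71 (median 2.00) and aged CR rats 1.57 to 2.45 (median 1.87). The diet interval was -0.44 to 0.48. The other 2 genes, at chr14:72331705-72380330 and chr9:43117914-43127887, had pooled log2 fold changes of -1.18 and -1.11. All 5 kept an adjusted p of at most 0.05 without rat 8 and library 8828.

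Of the genes nearer to young under CR, the 5 with the lowest adjusted p between diets are described. At chr2:144646308-144936927 young rats had 10.4 to 20.9 CPM (median 13.6), aged rats fed AL 39.3 to 140 (median 105) and aged CR rats 10.7 to 32.0 (median 20.5). The aged rats fed AL were clear of both other groups, whereas CR and young rats overlapped. CR minus young was 0.56 on the log2 scale (standard error 0.27), so a smaller rise under CR was not excluded. CR minus AL was -2.24 on the log2 scale (95% interval -2.83 to -1.64, adjusted p = 0.000539). A gene at chr10:43613931-43653390 had a median of 20.4 CPM in young rats (18.8 to 21.7), 37.4 in aged rats fed AL (32.4 to 50.4) and 24.0 in aged CR rats (19.4 to 32.1). Its pooled log2 fold change was 0.64, and the CR rats overlapped the young range. Without both libraries that stood apart this fold change was 0.56 on the log2 scale, under 1.5-fold, so the age call of this gene was lost.

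The lower genes of this kind included a pair of neighbours on chromosome 17. At chr17:33028293-33045690 young rats had 23.7 to 38.3 CPM (median 27.4), aged rats fed AL 5.57 to 14.1 (median 11.8) and aged CR rats 23.6 to 35.5 (median 27.2). At chr17:32973695-32990440 the medians were 174, 80.1 and 163 CPM in the same order. At both loci the aged rats fed AL were below all other rats, and the log2 difference of CR minus AL was 1.38 (adjusted p = 0.000793) and 1.18 (adjusted p = 0.00535). Their pooled log2 fold changes, -0.66 and -0.65, came from the aged rats fed AL alone, since CR minus young was 0.03 and -0.07. Without both libraries that stood apart, the pooled log2 fold change at chr17:33028293-33045690 was -0.566, under 1.5-fold, so its age call was lost. The gene at chr17:32973695-32990440 kept its age call, at -0.588. At chr1:102414625-102456411 the medians were 10.0 CPM in young rats (8.79 to 23.5), 1.87 in aged rats fed AL (1.02 to 2.38) and 6.36 in aged CR rats (2.52 to 10.2). The aged rats fed AL were below all other rats, CR and young rats overlapped, and CR minus young was -0.98 on the log2 scale (adjusted p = 0.0807).

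Among the genes farther from young under CR, some had only the CR rats clear of young rats. At chr5:58855773-58882096 young rats had 43.5 to 57.5 CPM (median 48.3) and aged rats fed AL 30.8 to 82.3 (median 43.6), around the young range on both sides. Aged CR rats had 83.2 to 205 (median 133), above every other rat. CR minus AL was 1.43 on the log2 scale (95% interval 0.97 to 1.89, adjusted p = 0.00308), and the pooled log2 fold change of 0.77 had an adjusted p of 0.0301. At chr7:135466884-135630654 the medians were 10.5 CPM in young rats, 14.2 in aged rats fed AL and 31.2 in aged CR rats, with the CR rats (24.9 to 46.4) above all others (at most 15.9). Others had moved under both diets, among them ENSRNOG00000014448, described above, with log2 fold changes against young rats of -1.33 under AL and -3.11 under CR.

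**Figure D3:**
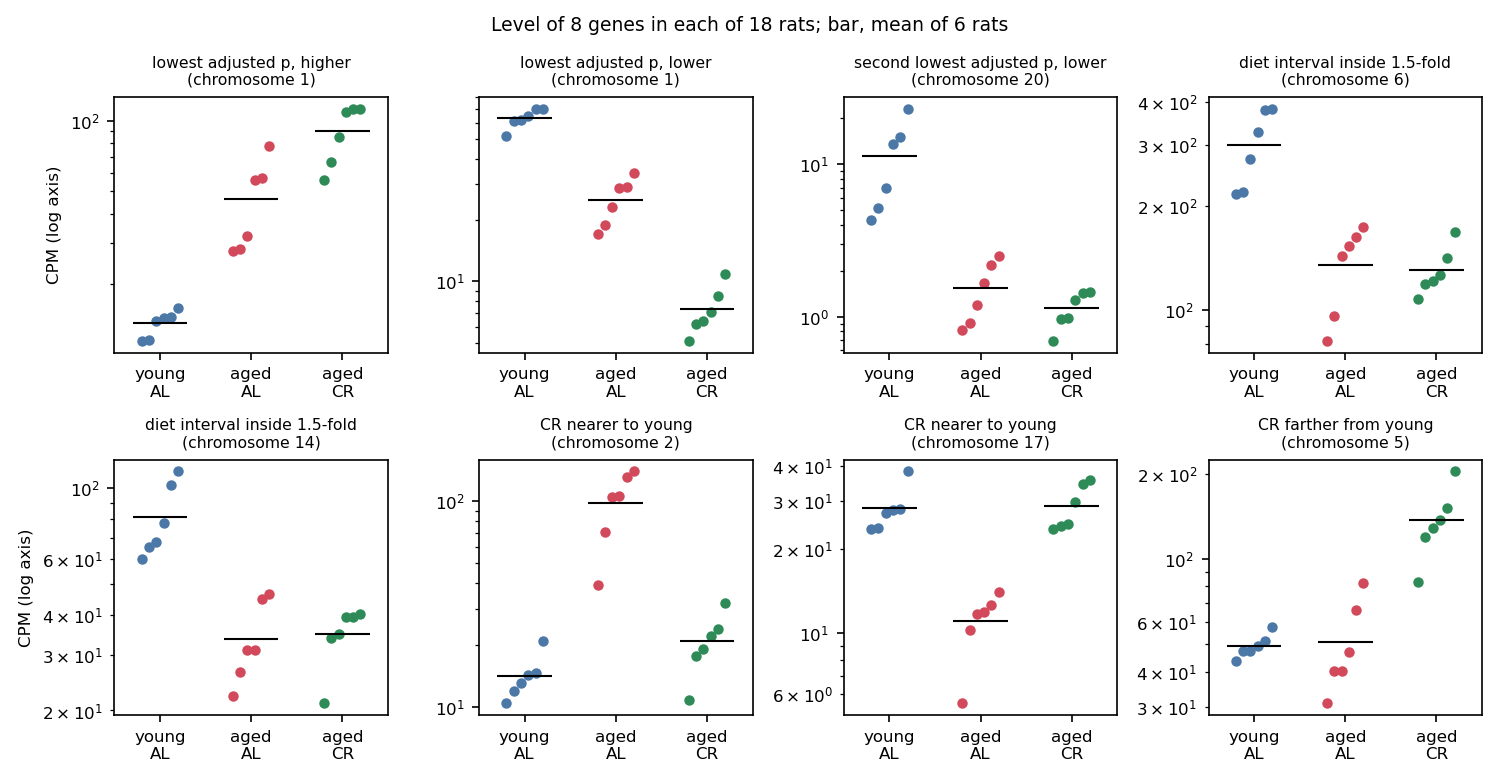
Level of 8 genes in each of the 18 rats, in CPM on a log axis, with the mean of each group of 6 as a bar. The top row and the first panel of the bottom row show genes with separate aged and young rats. In the other 3 panels of the bottom row 1 aged diet lay clear of young rats and the other overlapped them. An example is the gene on chromosome 2 with medians of 13.6, 105 and 20.5 CPM.

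The first 6 Mb of chromosome 20, chosen with earlier results of these data known, hold the start of the rat MHC. In a RefSeq gene list of another assembly (GRCr8) all 67 genes with RT1 symbols lie on chromosome 20. They run from rank 61 to rank 495 of the 1360 genes of that chromosome, which does not place them all within this stretch. The identifiers could not be matched to them, so which genes of the stretch are RT1 genes is not known here. Of 148 genes tested in the stretch, 14 were called higher (9.46%, against 1.43% of all genes tested) and 3 lower (2.03%, against 1.73%), and the median log2 fold change was 0.09. At an adjusted p of at most 0.01 there were 4 higher and 2 lower, against 33 higher and 91 lower among all 14646 genes tested. The rest of the chromosome had 2 higher and 7 lower among 278 genes. Without rat 8 and library 8828 it had 8 higher and 11 lower. The stretch then had 14 higher, not all of them the same genes, and 2 lower. That fit called 2.11% of all genes tested higher and 1.99% lower. In 6 of the 148 genes of the stretch all aged rats were above all young rats, against 0.246% of all genes tested. In 2 all were below, against 0.294%. None of these 17 age calls was called between diets by edgeR (4 had an unadjusted p under 0.05) or by DESeq2's Wald test. By edgeR 1.38% of all genes tested and 7.79% of all age calls were called between diets, and 0 of 17 is near these shares. Without rat 8 and library 8828 the adjusted p between diets of the gene at chr20:3979035-3989669 was 0.0302, compared with 0.244 from all libraries, and those of the other 16 stayed above 0.05.

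The 14 higher genes rose by 0.73 to 4.16 on the log2 scale, with standard errors of 0.16 to 1.09 and adjusted p of 0.000367 to 0.0395. At chr20:5374985-5378539 young rats had 31.6 to 50.2 CPM (median 35.1), aged rats fed AL 75.6 to 161 (median 107) and aged CR rats 55.4 to 109 (median 71.7). The aged rats all exceeded the young range, and the log2 fold change was 1.30 (standard error 0.17). It lies within the span of another called gene, at chr20:5351605-5421098, whose medians were 150, 265 and 238 CPM. A gene of low level at chr20:3146856-3150852 had 0.173 to 0.995 CPM in young rats, 1.01 to 4.48 in aged rats fed AL and 1.48 to 2.82 in aged CR rats, again without overlap. Summed over the 14 genes, the median level was 308 CPM in young rats, 589 in aged rats fed AL and 509 in aged CR rats.

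In 13 of these 14 genes the highest value was that of rat 8, against 20.7% of all genes tested and 34.0% of all higher genes. The summed level of the stretch was 5349 CPM in rat 8 and 4942 in library 8828, where the other 16 libraries reached at most 4321. The largest log2 fold change, 4.16 at chr20:1876173-1897814, was 2.59 without these libraries, with 7.51 CPM in rat 8 and 5.07 in library 8828 against at most 0.956 and 0.718 in the others of their groups. At chr20:4302347-4508214 it was 2.25, and 1.52 without both. Without both libraries the log2 fold changes of all 14 genes were smaller, from 0.576 to 2.59, and all kept an adjusted p of at most 0.05. The smallest, at chr20:3189473-3197457, was then under 1.5-fold, so its call was lost. The count of 14 also rested on the young rats, since leaving out young rat 3, 4 or 6 left 7 higher calls in the stretch and leaving out young rat 5 left 8. MHC genes have near-identical copies, so counts of single members are uncertain where reads were shared.

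The lower genes of the stretch included the largest fall of all calls. At chr20:4877324-4879779 young rats had 42.1 to 217 CPM (median 114), aged rats fed AL 3.29 to 24.0 (median 7.95) and aged CR rats 3.73 to 16.5 (median 9.36). The pooled log2 fold change was -3.53 (standard error 0.44, adjusted p = 0.000358). This locus and ENSRNOG00000061483 lay close together, and both separated every aged from every young rat. The young rats varied about 5-fold among themselves at both loci. The third lower gene, at chr20:5619012-5625320, had medians of 2.06, 0.990 and 0.542 CPM in young, aged AL and aged CR rats, and its adjusted p of 0.0471 became 0.0582 without both libraries.

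**Figure D4:**
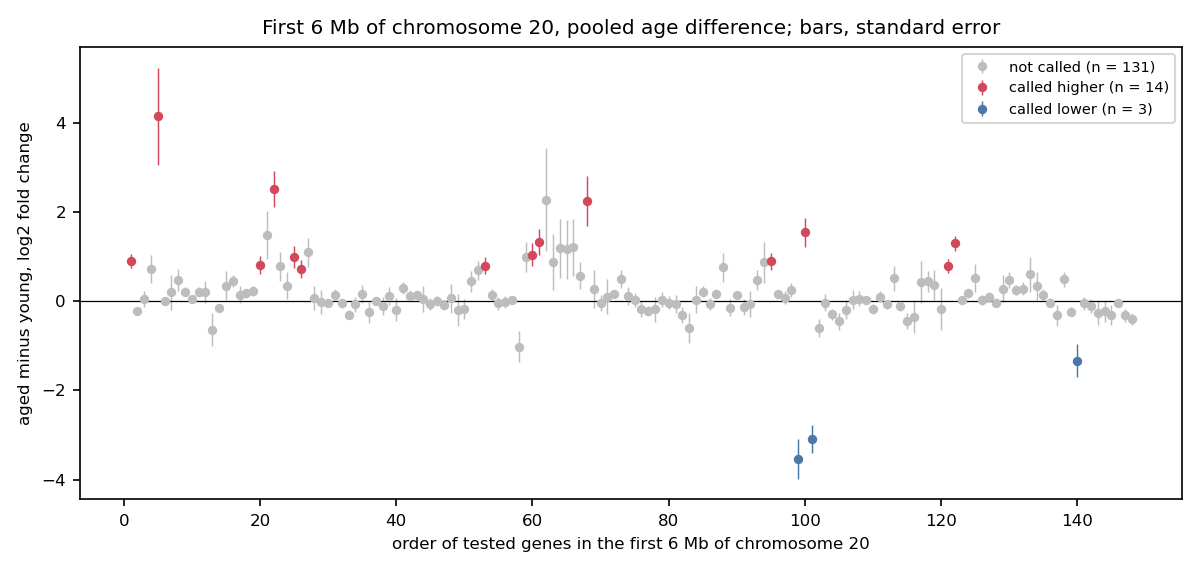
Pooled log2 fold change of the 148 genes tested in the first 6 Mb of chromosome 20, in their order along the chromosome, with standard errors. The 14 called higher (red) are spread over most of the stretch, and the lowest values, -3.53 and -3.09 (blue), are close neighbours.

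The mitochondrial chromosome held 27 tested genes. Their names are not in the files and were taken from the order, length and strand of genes that vertebrate mitochondrial chromosomes share. The median log2 fold change of the 27 was -0.76, compared with 0.0018 over all genes, and edgeR called 4 lower (14.8%, against 1.73% of all genes tested) and none higher. DESeq2's Wald test called 8 lower, an adjusted p of at most 0.01 left 0, and the fit with 1 coefficient for all aged rats called 2. Among all 14646 genes tested, these settings called 363, 91 and 196 lower in the same order. Leaving out each library in turn gave 2 to 8 lower calls, with 8 without library 8827 or young rat 2 and 2 without young rat 3, 4, 5 or 6. A rise had an unadjusted p under 0.05 in 0 of them, and DESeq2's Wald test also called 0 higher. For the 13 protein genes the pooled estimate was below 0 in every case, from -1.18 to -0.05 (median -0.71), and 2 were called. That of ND3 was above 0 with upper-quartile scaling and without rat 8, without young rat 4 or without both libraries that stood apart. These genes are transcribed as long shared precursors and are not independent of each other.

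The called protein genes were ND4L and ND4, neighbouring subunits of complex I, the NADH dehydrogenase at the entrance of the respiratory chain. For ND4L, young rats had 129 to 684 CPM (median 359), aged rats fed AL 170 to 283 (median 206) and aged CR rats 84.1 to 269 (median 140). Its pooled log2 fold change was -1.18 (standard error 0.26, adjusted p = 0.0181). ND4 had medians of 65.2, 50.2 and 25.2 CPM in the same order and also fell by 1.18 on the log2 scale (standard error 0.27, adjusted p = 0.0193). The groups overlapped for both, with 2 and 5 of the 12 aged rats below every young rat, all of them CR rats. Against young rats alone, the log2 fold changes of ND4L and ND4 were -0.91 and -0.71 under AL (adjusted p = 0.101 and 0.198) and -1.44 and -1.65 under CR (adjusted p = 0.0203 and 0.00997). ND4 was at 59.0 CPM per kb in young rats, the lowest level per length of the 13, where ND4L was at 1372 CPM per kb. Reads shared with near-identical nuclear copies of mitochondrial DNA may be missing from such counts, so levels of single genes are uncertain.

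The other complex I subunits ND2, ND5 and ND6 had pooled log2 fold changes of -1.01, -0.83 and -0.79 with adjusted p of 0.0503, 0.0648 and 0.0697. Those of ND1 and ND3 were -0.60 and -0.05. CYTB, of complex III, was at -0.71 (adjusted p = 0.126). The cytochrome oxidase subunits CO1, CO2 and CO3 of complex IV were at -0.36, -0.25 and -0.40, and the ATP synthase subunits ATP6 and ATP8 at -0.60 and -0.76, with adjusted p from 0.126 to 0.583. CO1 had the highest level per length, at 12356 CPM per kb in young rats, 11343 in aged rats fed AL and 8203 in aged CR rats. CR minus AL was also below 0 for all 13 genes, from -0.94 (ND4) to -0.31 (ND3), and none of these differences passed edgeR's test (adjusted p 0.147 to 0.549, with 2 unadjusted p under 0.05) or DESeq2's. Over all genes tested, edgeR called 1.38% between diets.

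The other lower calls were genes for tRNA-Ile and tRNA-Tyr, with pooled log2 fold changes of -2.10 (adjusted p = 0.0311) and -0.85 (adjusted p = 0.0471). The adjusted p of tRNA-Tyr was 0.0519 without both libraries. The levels of tRNA-Ile, at most 3.38 CPM, were low. The ribosomal RNA genes behaved otherwise, with pooled log2 fold changes of 0.34 for 12S rRNA and 0.42 for 16S rRNA (adjusted p = 0.837 and 0.646). Both were called between the aged diets, higher in CR rats by log2 differences of 4.70 and 2.61 (adjusted p = 0.0219 and 0.0262). Their share of all counts was 0.341 to 3.10% in young rats, 0.662 to 0.977% in aged rats fed AL and 0.906 to 10.3% in aged CR rats, with group means of 1.47, 0.814 and 5.19%, so CR rats spread wider than the means lay apart. For 12S rRNA, library 8826, library 8827 and rat 14 had 24026, 23032 and 32906 CPM. Library 8828, rat 13 and rat 15 had 652, 2306 and 1661, within the young range of 223 to 6589. All libraries of the series had been depleted of ribosomal RNA by the authors. The share of counts on the 13 protein genes was 2.34 to 5.2% in young rats, 2.23 to 5.88% in aged rats fed AL and 1.57 to 2.78% in aged CR rats, with the lowest value in library 8828.

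**Figure D5:**
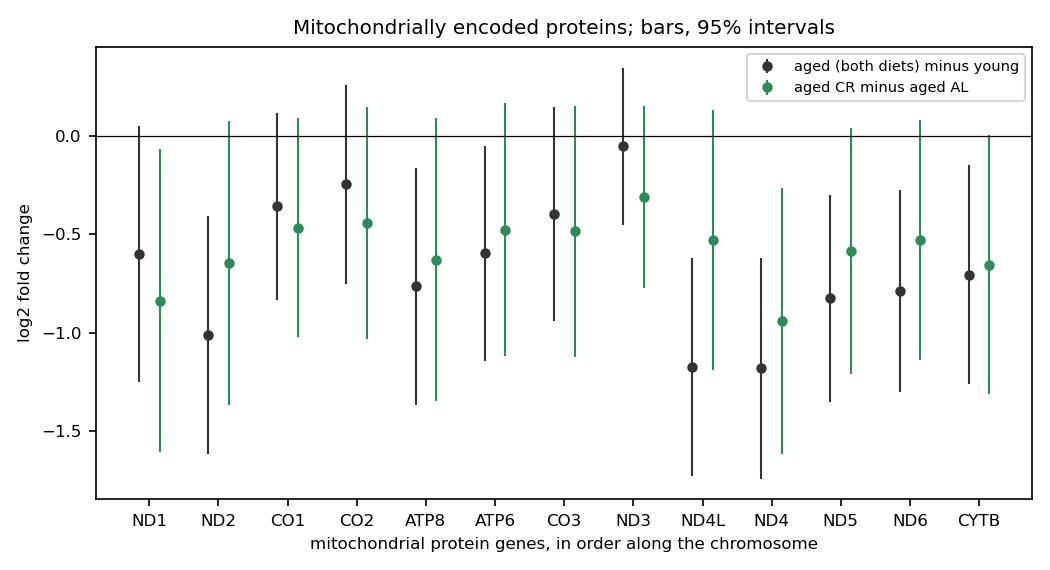
Log2 fold changes of the 13 mitochondrial protein genes, aged minus young (black) and CR minus AL within the aged side (green), with 95% intervals. All points lie below 0, and the age intervals of ND4L and ND4 lie farthest from it.

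Outside chromosome 20, the mitochondrial chromosome and chromosome Y, which had only 7 tested genes, higher calls made up 0.703% (chromosome 19) to 2.15% (chromosome 16) of the genes tested on a chromosome, and lower calls 0.661% (chromosome X) to 3.29% (chromosome 12). Chromosome 20 beyond its first 6 Mb had 0.719% higher and 2.52% lower calls. The directions were also set beside exon length. From the shortest to the longest quartile of exon length, the median log2 fold change of all tested genes was 0.04, 0.03, -0.0019 and -0.06. Higher calls made up 1.28, 1.99, 1.37 and 1.07% of the 4 quartiles and lower calls 1.31, 1.31, 2.13 and 2.16%.

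Windows of 2 Mb with at least 4 calls in a direction were listed. They were chosen on the calls, so their shares, beside 1.43% higher and 1.73% lower over all genes tested, are a description only. Both windows from 2 to 6 Mb of chromosome 20 were among them, with 7 of 55 (12.7%) and 5 of 87 (5.75%) genes higher. The highest values were those of rat 8 in 6 of these 7 and in all 5, against 20.7% of all genes tested. On chromosome 5, 5 of 25 genes (20.0%) between 158 and 160 Mb were lower, by log2 fold changes of -1.75 to -1.32, and 6 were called lower without both libraries. On chromosome 10, 4 of 34 genes (11.8%) between 82 and 84 Mb were lower, by -1.98 to -0.66. The window from 126 to 128 Mb of chromosome 6 held 4 higher genes, by 1.88 to 2.99, and 2 lower ones among 27 tested (14.8 and 7.41%), and without both libraries it held 7 higher and 3 lower genes.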

How the data were processed

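RNA of gastrocnemius from 18 rats was sequenced by the authors from strand-specific, ribosomal RNA-depleted libraries. They trimmed reads with Cutadapt 1.2.1, aligned them to Rnor_6.0 with STAR 2.3.0e and counted them on genes of Ensembl release 96 with featureCounts 1.6.4. The deposited values are these raw counts per gene and library. The command in the file header sets no strand option, so overlapping and antisense genes cannot be told apart. Total counts were 17335401 to 27432767 per library.

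In R 4.3.3, genes were kept by filterByExpr of edgeR 4.0.16, scaled by TMM and fitted with 3 group means over all 18 libraries. The quasi-likelihood test compared the mean of both aged groups with young rats, and aged CR rats with aged rats fed AL. Adjusted p-values are by Benjamini-Hochberg over all 14646 genes. The standard error of a log2 fold change is its size over the root of its F statistic, and 95% intervals use the residual degrees of freedom with their prior. P-values measure the spread between rats. Library measures were compared by two-sided exact permutation, where 12 against 6 rats allow no p below 5.39e-05 and 6 against 6 none below 0.00216.

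The members, gene sets and regions were chosen with earlier results of these data known. Genes described are the 12 of lowest adjusted p in each direction, the 5 of lowest diet p nearer to and farther from young, the 5 of largest change with the diet interval inside 1.5-fold, and the called or protein-coding genes of the chromosome 20 stretch and the mitochondrial chromosome. Since no file here pairs identifiers with symbols (0 matched the RefSeq list), symbol lists and promoter motifs were not analysed and 2 identifiers a direction are printed. On simulated counts for 14539 genes, 100% of genes changed 4-fold were called between ages and 98.0% between diets. Of these calls, 3.36% and 3.48% were unchanged genes. Recovery of genes changed less than 4-fold was not tested, although calls were made from 1.5-fold. Whether these shares hold for the libraries of the series was not tested. Alternatives were RLE and upper-quartile scaling, no filter or 10 counts in every library, DESeq2 1.42.0, a single aged coefficient, robust shrinkage, other thresholds, no mitochondrial genes, and leaving out libraries.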

Additional observations from a re-analysis of the deposited data

Results flagged for a closer look

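Each group of 6 libraries was searched for a library that lies apart, for 7 library measures and the genes described, 210 groups in all. In 28 groups the end library's distance from its neighbour, divided by the whole range and given below as the gap, passed Dixon's 95% limit. For normally distributed values chance gives about 1 in 20, or 10.5. Gene levels were taken as CPM without logs, and skewed values can pass the limit more often, so 28 is not tested against 10.5. Rat 8 accounted for 10 of these and library 8828 for 4, and the genes share these rats and are not independent.

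Rat 8 stood above the other aged rats fed AL in the summed level of the first 6 Mb of chromosome 20 (gap 0.682) and in 9 of its higher genes. In order along the chromosome, these were the genes starting at 1876173 (0.895), 2704148 (0.918), 3176107 (0.851), 3189473 (0.682), 3979035 (0.748), 3990613 (0.720), 4302347 (0.834), 4694472 (0.794) and 4892702 (0.659). Library 8828 stood above the other aged CR libraries in the genes starting at 1876173 (0.875) and 3979035 (0.726), and below them in ND1 (0.656) and CO2 (0.685). Rat 11 (aged, AL) stood above its group in ND1 (0.777), CO2 (0.677) and ATP8 (0.650), library 8827 in ND4L (0.678) and tRNA-Ile (0.689). Rat 15 had the fewest genes detected of the aged CR rats (gap 0.650), and rat 14 the lowest level of the gene at 45598743 on chromosome 14 (0.667). Among young rats the gaps were 0.668 (rat 5) for the gene at 5374985 and 0.739 (rat 2) for that at 3146856 of chromosome 20, 0.650 (rat 2) at 82818663 of chromosome 14, 0.686 (rat 1) at 102414625 of chromosome 1, 0.708 (rat 3) at 33028293 of chromosome 17, 0.644 (rat 5) at 1876173 of chromosome 20 and 0.671 (rat 4) for tRNA-Ile.

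The aged rats of both diets differed from each other in 16 of the genes described (CR minus AL in the same fit, edgeR, adjusted p at most 0.05). The 5 genes nearer to young and the 5 farther from young were described because they were called between diets, so their place among the 16 was fixed beforehand. The count of 16 is thus a list and not a result. Of all genes tested, 1.38% were called between diets. This contrast compares diets at 28 months, and whether CR alters a change with age was not tested. Neither 12S nor 16S rRNA, among the 16, was called between ages. The log2 differences were 0.95 for ENSRNOG00000021027, 0.80 for ENSRNOG00000018413 and -1.78 for ENSRNOG00000014448. For the genes starting at 144646308 on chromosome 2, 102414625 on chromosome 1, 43613931 on chromosome 10, and 33028293 and 32973695 on chromosome 17 they were -2.24, 1.83, -0.73, 1.38 and 1.18. For those at 19473373 on chromosome 15, 135466884 on chromosome 7, 58855773 on chromosome 5, 48745860 on chromosome 13, 123467549 on chromosome 4 and 82818663 on chromosome 14 they were 1.01, 1.23, 1.43, -1.08, -0.89 and -1.20. For 12S and 16S rRNA they were 4.70 and 2.61.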

How the results depend on the processing

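The 50 called genes described kept their direction in all 1439 alternatives that tested them, and 116 of these missed the threshold. These genes were called with all libraries and the alternatives share most of the data, so a kept direction was likely beforehand. Changes of threshold reuse the same estimates and cannot alter a direction. Of the 13 genes described without a call, ND3 reversed, to 0.0016 with upper-quartile scaling and 0.0733 without rat 8 and library 8828, and ran from -0.142 to 0.0274 over the fits without a single library (above 0 without rat 8 or young rat 4). DESeq2's Wald test called 802 genes (439 higher) between ages and 436 between diets, with 49 nearer, 37 farther and 622 of wide interval. An adjusted p of at most 0.01 left 124 calls (33 higher, 91 lower), 44 between diets, and 3 nearer, 7 farther, 25 inside 1.5-fold and 89 of wide interval. No fold minimum gave 696 calls (401 lower) and 271 inside 1.5-fold. Without a filter 129 genes were called between diets and 11 were nearer. With 10 counts in every library 131 were higher. With upper-quartile scaling 65 genes had all aged above all young rats. Without rat 8 and library 8828 there were 57 such genes, 477 calls between diets, 53 nearer and 28 farther. The cause of these shifts was not tested. Leaving out each library in turn gave 212 to 582 calls between ages (78 to 286 higher, 134 to 331 lower), 69 to 385 between diets, 6 to 41 nearer, 11 to 28 farther, 39 to 126 inside 1.5-fold, 144 to 442 of wide interval, 37 to 76 genes with all aged above and 43 to 121 below all young rats. It gave 7 to 15 higher calls in the first 6 Mb of chromosome 20. No paired analysis was possible because replicate numbers differ between groups. Counts of symbol lists were not run.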
